A study of Mus musculus with 10 samples.

Results

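The genes described here encode 10 hepatic transporters of bile acids, organic anions and biliary phospholipid. They were taken by symbol from the 24052 genes counted in each liver: Slc10a1, Slco1a1, Slco1a4, Slco1b2 and Slco2b1 for uptake from blood, Abcb11, Abcb4 and Abcc2 for export into bile, and Abcc3 and Abcc4 for export back into blood. RNA was sequenced from the livers of 5 wild-type and 5 Ndrg3 LKO mice with free access to chow, each liver giving 1 library; the strain is labelled C57BL/6, and the methods describe a backcross to C57BL/6N. Ndrg3 LKO mice carry a floxed Ndrg3 allele on both chromosomes and an Alb-Cre transgene, whose albumin promoter is active in hepatocytes. The paper describes the disruption as specific to hepatocytes, and which other liver cells keep the gene was not measured here. Wild-type littermates were the controls. One parent of the cross described in the methods was homozygous for the floxed allele, so littermates called wild-type may carry that allele without Cre. The labels give neither age nor sex, and the methods name young males as the default. Per the paper the RNA came from the livers of its metabolome, whose age in weeks differs between the methods and a figure legend.

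Hepatocytes take bile acids and drugs up from sinusoidal blood across the basolateral membrane and secrete them into the bile canaliculus. NTCP, encoded by Slc10a1, carries conjugated bile acids in with sodium, and the organic anion transporting polypeptides of the Slco genes carry bile acids, bilirubin conjugates, hormones and drugs without it. ATP-binding cassette pumps do the export, at the canaliculus for bile flow and at the basolateral membrane as an overflow route to blood and urine. In mouse liver Slco1a1 is known as a male-predominant transcript and Slco1a4 as a female-predominant one.

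The stretches before the transcription starts of 5 of the genes are shown because these genes mark the extremes and the contrasts of what follows: Slco1b2 fell most, Abcc4 rose, Slco1a1 and Slco1a4 are neighbours of 1 cluster with unlike values, and Abcb11 is the classical target of the bile acid receptor. Each line gives the 150 bases before the start in mm9, 5′ to 3′ on the gene's strand, in a RefSeq window of GRCm38.p6 that matched mm9 exactly at 1 place. Capitals mark motif letters on either strand.
Slco1b2, chr6:141577889-141578038, plus strand: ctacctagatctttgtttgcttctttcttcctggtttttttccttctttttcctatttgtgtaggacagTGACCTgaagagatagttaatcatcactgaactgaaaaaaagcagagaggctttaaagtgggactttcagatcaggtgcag
Slco1a1, chr6:141895484-141895633, minus strand: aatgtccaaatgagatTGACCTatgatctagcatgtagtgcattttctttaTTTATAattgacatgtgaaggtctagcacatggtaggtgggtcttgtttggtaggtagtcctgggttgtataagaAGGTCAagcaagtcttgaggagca
Slco1a4, chr6:141804742-141804891, minus strand: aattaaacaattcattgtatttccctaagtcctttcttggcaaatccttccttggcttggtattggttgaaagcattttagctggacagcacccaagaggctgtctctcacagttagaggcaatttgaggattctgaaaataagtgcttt
Abcb11, chr2:69180674-69180823, minus strand: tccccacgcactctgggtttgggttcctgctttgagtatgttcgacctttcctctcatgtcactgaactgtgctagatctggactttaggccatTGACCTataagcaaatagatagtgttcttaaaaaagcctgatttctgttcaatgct
Abcc4, chr14:119105442-119105591, minus strand: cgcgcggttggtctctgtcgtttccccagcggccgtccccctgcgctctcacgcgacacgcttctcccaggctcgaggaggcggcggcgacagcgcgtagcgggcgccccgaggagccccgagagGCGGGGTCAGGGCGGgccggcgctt

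In these lines the capitals are AGGTCA or its complement TGACCT, the core motif of many nuclear receptors, in Slco1b2, Slco1a1 and Abcb11. Slco1a1 also holds TATAAA, read on the other strand as TTTATA, at position -99. In Abcc4 they are GCGGGGTCA, the complement of the antioxidant response element core TGACNNNGC, at position -25, beside the GC box GGGCGG at position -16; these do not share a base. No motif searched was in the line of Slco1a4. Over the full windows, from 250 bases before to 50 bases after the start, on both strands, 13 windows of 9 transporter genes could be searched, and Abcc3 had none in the table. AGGTCA was in 5 of the 13 windows and in 16.3% of all 32851 promoters, and TGACNNNGC in 3 (both Abcc4 windows and that of Abcc2) against 12.4%. TATAAA was in 3 against 13.6%, GGGCGG in 2 (Abcb4 and Abcc4) against 35.7%, and the C/EBP motif TTGCNNCAA in 2 (Slco2b1 and Slc10a1) against 2.08%. Some windows belong to alternative starts inside a gene. The second Abcc4 window lies 29288 bases after the annotated gene start, and the Slco2b1 window with the C/EBP motif 4498 bases after it. Exact matches to the FXR inverted repeat and the HNF4 direct repeat were in none of the 13 windows, and in 0.0396% and 0.381% of all promoters. Matches with a changed letter were not searched. The Abcb11 line holds such a near match to the FXR inverted repeat, which overlaps its capitals. A match is a run of letters and not a tested site.

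Of the 5 uptake transcripts 4 were lower in Ndrg3 LKO livers, with 13.2% (Slco1b2) to 39.9% (Slc10a1) of the wild-type mean left. Of the 10 transporters, all tested, 6 were lower and 1 was higher at an adjusted p under 0.05 (edgeR's quasi-likelihood test, Benjamini-Hochberg over 11208 genes tested). The lower ones were Slc10a1, Slco1a1, Slco1b2, Slco2b1, Abcc2 and Abcc3, and the higher one was Abcc4. Across all genes tested 48.6% passed, 25.6% as higher and 23.0% as lower, so a call by itself was common in these livers. The median log2 fold change, Ndrg3 LKO minus wild-type, was -1.27 for the 10 transporters and 0.031 for all genes tested. Values of the groups did not overlap for 6 of the 10 transporters and for 31.5% of genes tested. These are whole-liver samples, in which fewer hepatocytes and less RNA per hepatocyte cannot be told apart.

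Libraries held 20872262 to 24747870 counts in wild-type and 23474693 to 30450057 in Ndrg3 LKO livers. Values below are TMM-normalized CPM, a gene's counts relative to its library's total after edgeR's correction for composition, and 3 counts, taken as the floor, correspond to 0.0728 to 0.179. Ndrg3 itself was at 15.9 to 21.9 in wild-type and at 7.08 to 9.18 in Ndrg3 LKO livers, a log2 fold change of -1.20 ± 0.13 (SE; adjusted p = 3.9e-05), with all 5 knockout livers below the lowest control. In the paper's design Cre removes the exon 4 region, whereas counts are per gene. The level left is therefore not a measure of intact transcript. Ndrg3 LKO replicate 5 stood apart from the other 4: the 20 most abundant genes took 26.6% of its counts, as in wild-type livers (26.2% to 28.0%), against 16.3% to 17.3% in replicates 1 to 4, and it lay between the groups on the first principal component. Without that liver 9 of the 10 transporters passed, 7 lower and 2 higher, against 55.6% of the 11446 genes then tested. The choice of scaling moved all genes together: with library size alone the median of all genes rose to 0.56, and 85.3% of called genes were higher against 52.6% with TMM. With that scaling 5 transporters were called lower and 3 higher, and differences from each setting's own median are therefore given where a call turned on it.

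**Figure D1:**
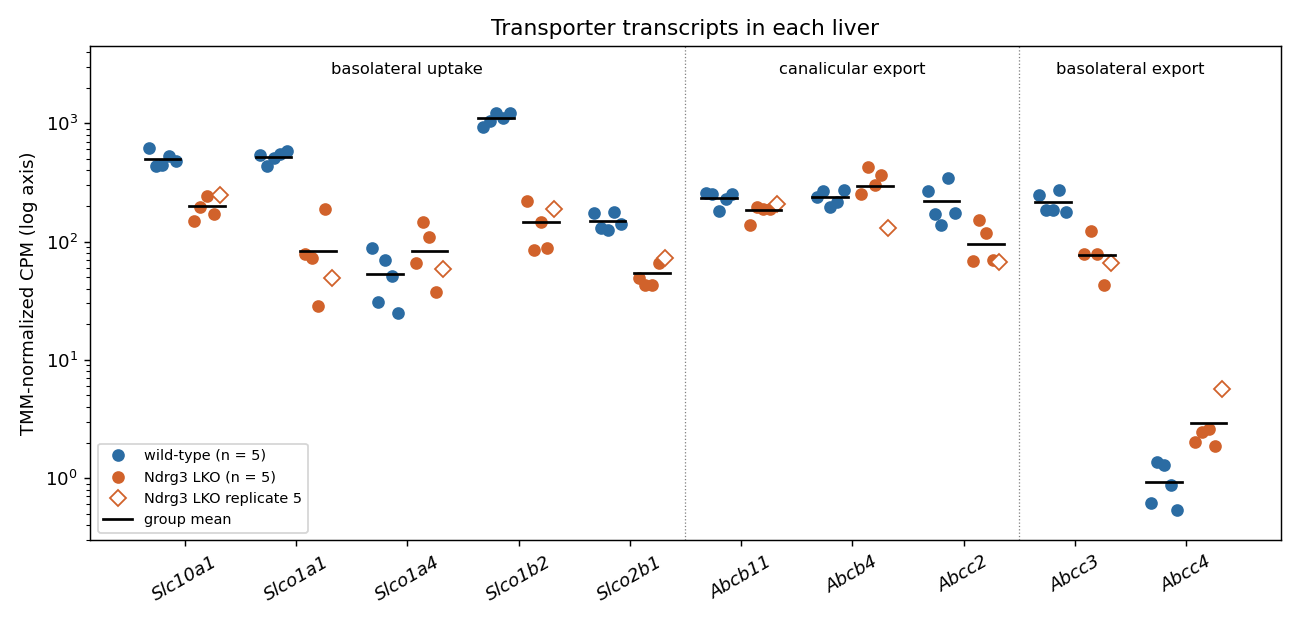
TMM-normalized CPM on a log axis for each of the 10 transporters, with 1 point per liver (blue, 5 wild-type; orange, 5 Ndrg3 LKO; open diamond, Ndrg3 LKO replicate 5) and a line at the group mean. The groups are apart for Slc10a1, Slco1a1, Slco1b2, Slco2b1, Abcc3 and Abcc4 and share a range for Slco1a4, Abcb11, Abcb4 and Abcc2.

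Slco1b2, the mouse counterpart of the human liver OATP1B carriers, fell furthest. It lies at chr6:141578039-141635167 on the plus strand in mm9, and its promoter line above holds the AGGTCA complement. Wild-type livers held 932, 1036, 1223, 1108 and 1209 TMM-normalized CPM and Ndrg3 LKO livers 219, 85.6, 145, 88.8 and 190.0. Every knockout liver was below every control. The means were 1101 ± 122 and 146 ± 59.5 (SD, n = 5 each), so 13.2% of the control level was left, with a log2 fold change of -2.92 ± 0.28 (adjusted p = 1.8e-05), and -3.04 without Ndrg3 LKO replicate 5.

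Slco1a1, the male-predominant organic anion carrier, was the other strong fall (chr6:141855803-141895483, minus strand). It was at 540.0, 433, 504, 554 and 585 in wild-type and at 78.0, 73.0, 28.5, 188 and 49.0 in Ndrg3 LKO livers. The controls were close together, whereas the knockout livers ran from 28.5 in replicate 3 to 188 in replicate 4. The mean fell from 523 ± 58.3 to 83.3 ± 61.9, a log2 fold change of -2.65 ± 0.41 (adjusted p = 4.1e-04), and -2.52 without Ndrg3 LKO replicate 5.

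Slco1a4, the female-predominant member of the same cluster (chr6:141753961-141804720, minus strand), did not fall with its neighbours. Wild-type livers were at 88.0, 30.6, 70.0, 51.4 and 24.9 and Ndrg3 LKO livers at 65.7, 145, 109, 37.3 and 58.3. The ranges overlapped, with 3 knockout livers inside the control range and 2 above it. The log2 fold change was 0.65 ± 0.40 (adjusted p = 0.198; exact 2-sided permutation p = 0.214 over 252 splits, of which the smallest possible p is 0.00794). With library-size scaling it was 1.23 (adjusted p = 0.0266), but relative to the median of all genes it was 0.62 with TMM and 0.67 with library size. Slco1a1 and Slco1a4 are related in sequence, so reads could be divided between them in counting and both values carry that uncertainty.

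Slc10a1, the sodium-dependent bile acid carrier NTCP (chr12:82054172-82068971, minus strand), was at 617, 435, 446, 532 and 483 in wild-type and at 148, 197, 243, 171 and 245 in Ndrg3 LKO livers. The highest knockout liver, replicate 5, was below the lowest control. The means of 503 ± 74.2 and 201 ± 43.1 gave a log2 fold change of -1.32 ± 0.18 (adjusted p = 1.7e-04).

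Slco2b1, a carrier of sulfated steroids and drugs (chr7:106806314-106859850, minus strand, with an annotated gene on the opposite strand), was at 173, 129, 124, 177 and 139.7 in wild-type and at 49.3, 42.9, 43.3, 65.6 and 72.0 in Ndrg3 LKO livers. No values overlapped. It fell from 149 ± 24.8 to 54.6 ± 13.4, a log2 fold change of -1.45 ± 0.18 (adjusted p = 1.1e-04). Slc10a1 and Slco2b1 had the most alike patterns over the 10 livers of any pair among the transporters, with a Euclidean distance of 0.935 between their centred log2 values. Of the 5 uptake genes, 4 were lower and none higher, with all 10 livers and without Ndrg3 LKO replicate 5.

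The export pumps of the canaliculus did not fall together. Abcb11, the bile salt export pump (chr2:69076339-69180671, minus strand, overlapped by other annotated genes on both strands), was at 255, 251, 183, 227 and 251 in wild-type and at 138, 195, 187, 188 and 208 in Ndrg3 LKO livers. Wild-type replicate 3 lay among the knockout livers, and the other 4 controls were above all of them. The means were 233 ± 30.4 and 183 ± 26.3, so 78.5% of the control level was left. The log2 fold change of -0.35 ± 0.15 missed the threshold (adjusted p = 0.0700; exact permutation p = 0.0397 unadjusted). It was -0.41 (adjusted p = 0.0338) without Ndrg3 LKO replicate 5, -0.44 (adjusted p = 0.0320) without wild-type replicate 3 and -0.35 (adjusted p = 0.0406) with DESeq2, but -0.087 (adjusted p = 0.662) with quantile normalization and 0.18 (adjusted p = 0.368) with library-size scaling. Relative to the median of all genes it was -0.38 with TMM and with library size, and -0.12 with quantile normalization.

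Abcb4, the phospholipid floppase that supplies bile with phosphatidylcholine (chr5:8893717-8959225, plus strand), was at 237, 266, 195, 214 and 274 in wild-type and at 253, 430.0, 301, 363 and 129.9 in Ndrg3 LKO livers. The knockout livers lay on both sides of the controls: replicates 2, 3 and 4 were above all controls, replicate 1 among them and replicate 5 below them all. The log2 fold change was 0.32 ± 0.26 (adjusted p = 0.334) with all livers, and 0.50 ± 0.17 (adjusted p = 0.0280) without Ndrg3 LKO replicate 5. With library-size scaling it was 0.91 (adjusted p = 0.0247), but relative to the median of all genes it was 0.29 with TMM and 0.35 with library size.

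Abcc2, the canalicular pump of bilirubin and glutathione conjugates (chr19:43856682-43912441, plus strand), was at 267, 171, 139, 345 and 176 in wild-type and at 68.2, 152, 118, 69.6 and 67.7 in Ndrg3 LKO livers. Ndrg3 LKO replicate 2 was above wild-type replicate 3, and the other 4 knockout livers were below all controls. The mean went from 219.7 ± 84.7 to 95.1 ± 38.3, a log2 fold change of -1.21 ± 0.30 (adjusted p = 0.00658). With library-size scaling it was -0.65 (adjusted p = 0.125), but measured from the all-gene median it was -1.24 with TMM and -1.21 with library size. Of the 3 canalicular genes 1 was thus called lower with all livers, and 2 lower and 1 higher without Ndrg3 LKO replicate 5.

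The basolateral export pumps went in opposite directions. Abcc3, which returns glucuronides and bile acids to blood (chr11:94204612-94254311, minus strand), was at 248, 184, 185, 274 and 178 in wild-type and at 77.9, 122, 78.0, 42.8 and 66.3 in Ndrg3 LKO livers. All knockout livers were below all controls, and the log2 fold change was -1.47 ± 0.25 (adjusted p = 6.8e-04). Abcc2 and Abcc3, which share many conjugated substrates, were the pair next most alike over the 10 livers, at a distance of 1.04.

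Abcc4, the basolateral pump of bile acids and cyclic nucleotides (chr14:118881914-119105441, minus strand), was the only transporter of the 10 called higher with all livers, from a low level. Wild-type livers held 11, 28, 23, 19 and 9 counts and Ndrg3 LKO livers 70, 101, 101, 66 and 119. In TMM-normalized CPM these were 0.618, 1.37, 1.28, 0.874 and 0.536 against 2.02, 2.45, 2.60, 1.88 and 5.62. All knockout livers were above all controls, and replicate 5 stood well above the other 4. The means of 0.936 ± 0.378 and 2.91 ± 1.54 gave a log2 fold change of 1.61 ± 0.37 (adjusted p = 0.00405), and 1.23 ± 0.29 (adjusted p = 0.00363) without that liver. On the log2 (CPM + 1) scale of limma, which understates the change of low genes, it was 0.97 with TMM and 0.76 with quantile normalization, still called. At least 1 CPM was reached in 2 wild-type and in 5 Ndrg3 LKO livers, so the gene entered the test mostly through the group in which it was higher, and a filter on a mean CPM of at least 5 leaves it out. Its first promoter line above holds the complement of TGACNNNGC and GGGCGG side by side.

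**Figure D2:**
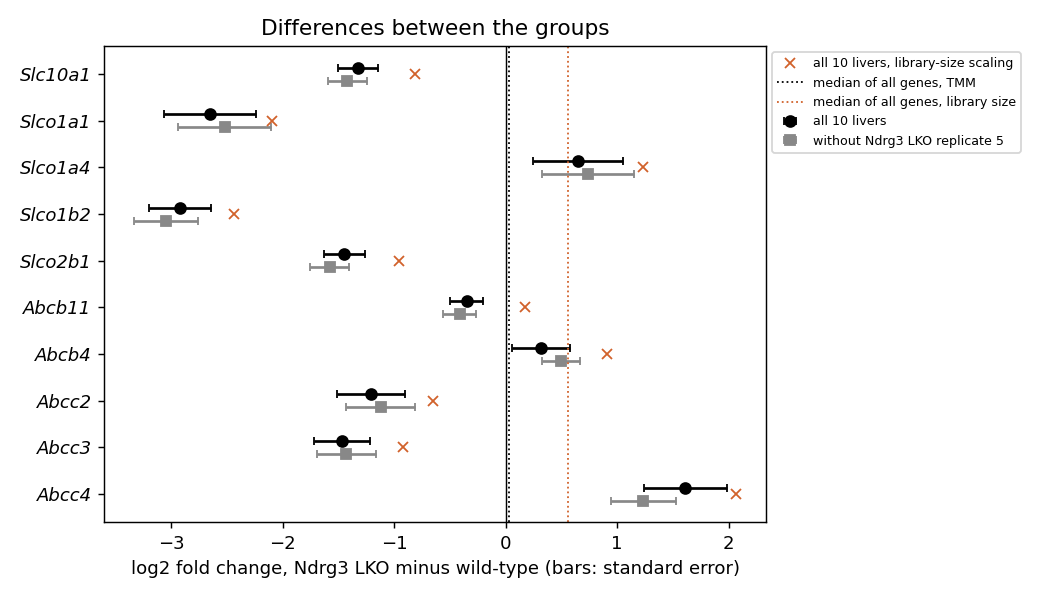
Log2 fold change, Ndrg3 LKO minus wild-type, of the 10 transporters with all 10 livers (black), without Ndrg3 LKO replicate 5 (grey) and with library-size scaling (orange crosses). Bars are standard errors and dotted lines the median of all genes under TMM (0.031) and library-size scaling (0.56); Abcb11 is left of 0 with TMM and right of 0, but left of the median, with library size.

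Ratios of counts within a liver do not depend on how libraries are scaled, and they separated the groups. They are formed from genes described above, of which Slco1a1 and Abcc4 already separated the groups on their own. The separation is therefore no further evidence, and how often ratios of other genes separate the groups was not counted. The ratio of Slco1a4 to Slco1a1 was 0.163, 0.0708, 0.139, 0.0928 and 0.0426 in wild-type and 0.842, 1.99, 3.84, 0.198 and 1.19 in Ndrg3 LKO livers. Per kilobase of merged exons, Slco1a4 was above Slco1a1 in every knockout liver except replicate 4, and in no control. The log2 ratio was higher by 3.57 on average, and by 3.54 without Ndrg3 LKO replicate 5. The ratio of Abcc4 to Abcc2 was 0.00231 to 0.00922 in wild-type and 0.0162 to 0.0830 in Ndrg3 LKO livers, higher by 2.82 on the log2 scale and by 2.46 without Ndrg3 LKO replicate 5. Summed uptake over summed export counts was 2.28 to 3.37 in wild-type and 0.603 to 1.29 in Ndrg3 LKO livers, a log2 difference of -1.55, and -1.68 without Ndrg3 LKO replicate 5. These are descriptions with no test. A ratio between genes of different length is not a ratio of molecules, so its change between the groups is what can be read.

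**Figure D3:**
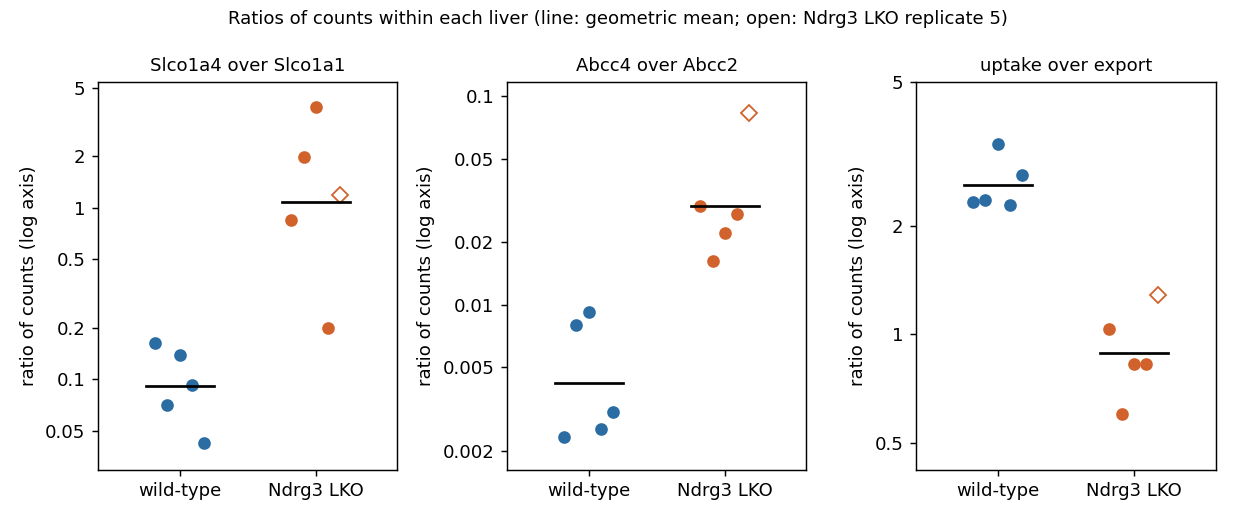
Ratios of counts within each liver on log axes, for Slco1a4 over Slco1a1, Abcc4 over Abcc2 and summed uptake over summed export genes, with 1 point per liver (open diamond, Ndrg3 LKO replicate 5) and a line at the geometric mean. No knockout value overlaps a control value in any panel, and the spread of the first ratio is widest in Ndrg3 LKO livers, from 0.198 to 3.84.

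Per kilobase of merged exons, levels can be set side by side between genes. In wild-type livers Slc10a1 led with a mean of 318 TMM-normalized CPM per kb (276 to 391), before Slco1b2 with 223 (189 to 248) and Slco1a1 with 99.2 (82.0 to 111), and these did not overlap. Abcb4 at 57.8, Abcb11 at 46.2, Abcc2 at 38.3, Abcc3 at 37.6, Slco2b1 at 26.5 and Slco1a4 at 13.8 followed, each overlapping the next in range, and Abcc4 was far below at 0.163. In Ndrg3 LKO livers Slc10a1 at 127 was still first by its mean, and Abcb4 at 72.0 (31.7 to 105) came next, overlapping it. Abcb11 at 36.3, Slco1b2 at 29.6 and Slco1a4 at 21.6 came after, ahead of Abcc2 at 16.6, Slco1a1 at 15.8, Abcc3 at 13.6 and Slco2b1 at 9.73, all with overlapping neighbours. Abcc4 stayed last at 0.509.

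The 4 Slco genes summed to 323 to 387 TMM-normalized CPM per kb in wild-type and to 70.9 to 85.0 in Ndrg3 LKO livers. Within that sum the share of Slco1a4 was 1.67% to 6.62% in wild-type and 12.9% to 49.2% in Ndrg3 LKO livers, and that of Slco1b2 54.8% to 65.0% and 22.7% to 52.2%. Neither pair of ranges overlapped. Slco1a1 held 24.9% to 29.7% of the sum in wild-type livers and 7.61% to 47.5% in Ndrg3 LKO livers, with replicate 4 above the controls and the others below. Thus the sum was alike in the 5 knockout livers while its makeup was not.

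**Figure D4:**
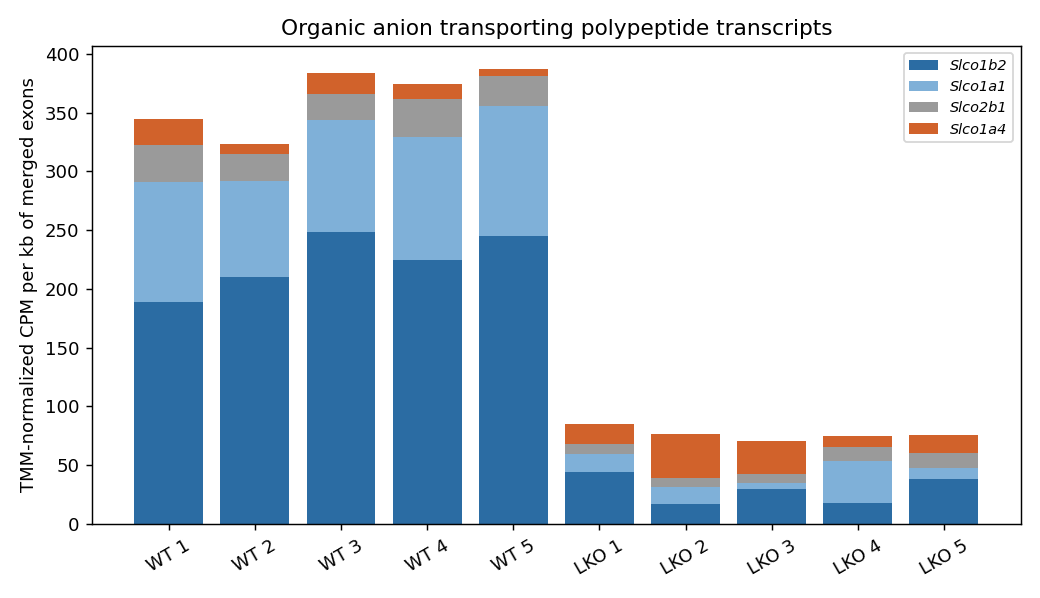
Stacked bars of the 4 Slco transcripts in each liver, in TMM-normalized CPM per kb of merged exons. Wild-type bars reach 323 to 387 and are mostly Slco1b2 and Slco1a1; Ndrg3 LKO bars reach 70.9 to 85.0, and Slco1a4 (orange, top) takes 12.9% to 49.2% of them.

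By Euclidean distance over 10 centred log2 values, the genes most like Slco1b2 were C9, a terminal complement component (1.05), Sugct, a mitochondrial CoA transferase (1.13), and Ldhd, the D-lactate dehydrogenase (1.18), each with a log2 fold change between -2.54 and -2.95. Those most like Abcc4 were Itgb3, an integrin subunit (0.626), Nrarp, a Notch-regulated ankyrin repeat gene (0.699), and Gdpd5, a glycerophosphodiesterase (0.732). Distances of low-level genes such as Abcc4 are small because their log2 values vary little.

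Among 27 other transport and membrane-anchoring genes, 21 were tested, of which 10 were lower and 2 higher, with a median log2 fold change of -0.73 and 8 without overlap. Of all genes tested, 23.0% were lower, 25.6% higher and 31.5% without overlap, shares that also stand beside the counts of the lists below. Without Ndrg3 LKO replicate 5 there were 11 lower and 3 higher, and with library-size scaling 7 lower and 3 higher. Slc22a7, the organic anion transporter OAT2, was lowest relative to controls. It was at 59.8, 87.6, 42.2, 49.4 and 102 in wild-type and at 0.173, 0.0243, 0.206, 0.171 and 1.37 in Ndrg3 LKO livers, the second of these being 1 count and under the floor. The mean fell from 68.1 to 0.389, with a log2 fold change of -7.71 ± 0.66 (adjusted p = 9.6e-06), and -8.88 without Ndrg3 LKO replicate 5. Slc10a2, the apical sodium-dependent bile acid carrier known from ileum and bile duct cells, fell from 15.5 to 1.21 (log2 fold change -3.82, adjusted p = 0.00193; -5.64 without Ndrg3 LKO replicate 5). Its level was 0.146 to 0.432 in Ndrg3 LKO replicates 1 to 4 and 4.82 in replicate 5, all below the lowest control.

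Slc47a1, a canalicular proton-coupled exporter of organic cations, fell from 92.6 to 25.9 (log2 fold change -1.84, adjusted p = 0.0072); without Ndrg3 LKO replicate 5, at 70.2, the knockout mean was 14.8 and the log2 fold change -2.65. Abcc1, an export pump of the same family as Abcc4, rose from 0.533 to 1.31 (1.29, adjusted p = 0.0047), but reached 1 CPM in 0 wild-type and 5 Ndrg3 LKO livers. Among near relatives of the Slco1a pair, Slco1a6 had 0 counts in every liver and Slco1a5 had 1 count in 1 knockout liver. Slc51a, a subunit of the basolateral bile acid exporter of gut and bile duct, had 0 counts in all 10 livers.

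Among 14 regulators of these transporters, 4 were lower and 1 higher, with a median log2 fold change of -0.077; library-size scaling gave 4 lower and 5 higher with a median of 0.46, under its all-gene median of 0.56. Nr1h4, the bile acid receptor FXR, was at 129 to 183 in wild-type and at 83.6 to 193 in Ndrg3 LKO livers, where replicate 5 was the lowest. Its log2 fold change was 0.12 ± 0.21 (adjusted p = 0.645), and 0.70 (adjusted p = 0.0349) with library-size scaling, while relative to the median of all genes it was 0.092 with TMM and 0.14 with library size. Nr0b2, the FXR-induced repressor SHP, named after its values were seen, was lower, at a mean of 6.05 against 26.9 (-2.18 ± 0.47, adjusted p = 0.00286), with Ndrg3 LKO replicate 5 at 14.3 above wild-type replicate 3 at 8.59; without replicate 5 it was -2.77.

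Hnf4a, a master factor of hepatocyte genes, fell from 689 ± 72.3 to 230.3 ± 75.9 (log2 fold change -1.58 ± 0.21, adjusted p = 1.3e-04). Nr1i3, the xenobiotic receptor CAR, fell from 109 to 32.6 (-1.73, adjusted p = 0.00304), and Ppara, the fatty acid receptor, from 335 to 119 (-1.5, adjusted p = 4.8e-05). Nfe2l2, which encodes NRF2, the factor that binds antioxidant response elements, rose from 41.7 ± 3.66 to 193 ± 71.5 (2.21 ± 0.28, adjusted p = 1.1e-04). It was at 207 to 256 in Ndrg3 LKO replicates 1 to 4 and at 69.4 in replicate 5. Abcc4 was highest in replicate 5, and a link between these genes was not tested.

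**Figure D5:**
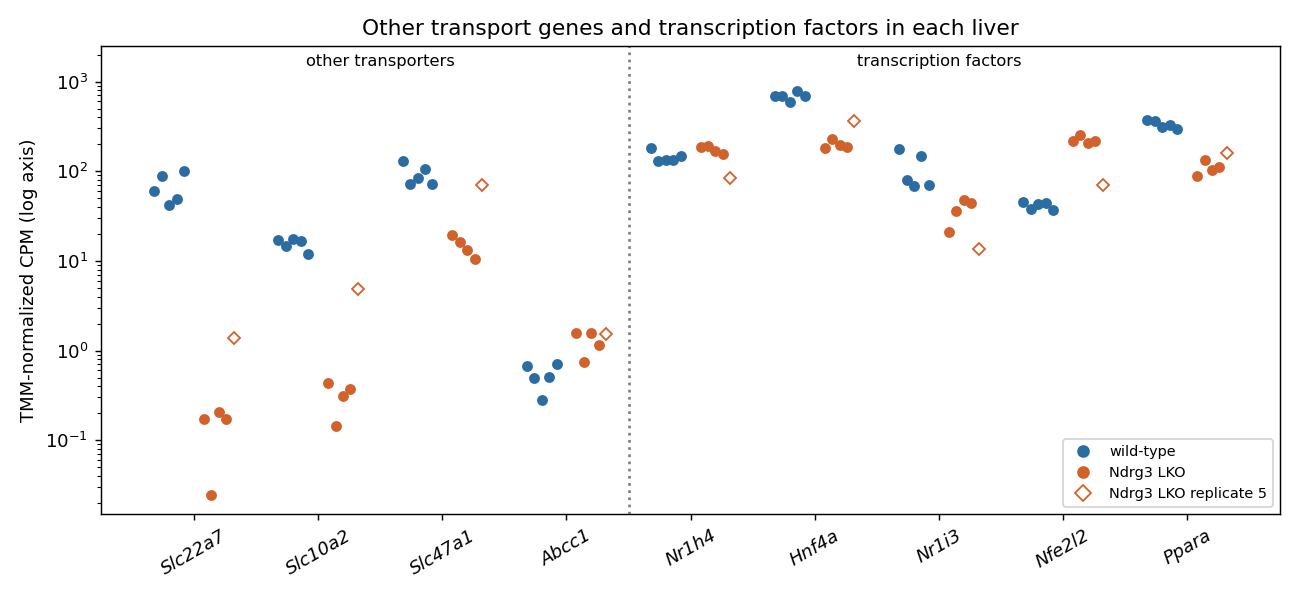
TMM-normalized CPM on a log axis of 4 other transport genes and 5 transcription factor genes, with 1 point per liver (blue, wild-type; orange, Ndrg3 LKO; open diamond, Ndrg3 LKO replicate 5). Replicate 5 lies between the groups for Slc22a7, Slc10a2, Slc47a1, Hnf4a, Nfe2l2 and Ppara, and Nr1h4 overlaps.

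All 6 bile acid synthesis genes tested were lower, with a median log2 fold change of -2.43; with library-size scaling, and with quantile normalization, 5 of them were. Cyp8b1, the sterol 12α-hydroxylase that makes cholic acid, was at 384 to 713 in wild-type livers and at 0.316 to 3.22 in Ndrg3 LKO replicates 1 to 4, with 102 in replicate 5 (-4.79 ± 1.4, adjusted p = 0.0144; -8.74 without replicate 5). Cyp7b1, an oxysterol hydroxylase, fell from 673 to 73.9 (-3.19, adjusted p = 3.4e-04). Cyp7a1, the rate-limiting enzyme of the classical route, was at 86.4 ± 37.0 and 42.3 ± 20.7 (-1.03 ± 0.39, adjusted p = 0.0460), with overlapping groups and a call lost in 11 of 18 alternatives.

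Many markers of liver cell types also differed between the groups. Of 12 hepatocyte markers 8 were lower and none higher, with a median log2 fold change of -1.05, though with library-size scaling 3 were higher and with quantile normalization 4 were lower and 3 higher. Their summed level was 170770 to 207592 TMM-normalized CPM in wild-type livers, 54554 to 61397 in Ndrg3 LKO replicates 1 to 4 and 184381 in replicate 5. Most of that sum was Alb, with 108020 in replicate 5. In replicate 5 Alb, Ttr, Cps1, Tat, F2 and C3 lay within the wild-type range and Ambp and Hpx above it, but Apob at 2357, Trf at 16254, Fgb at 2526 and Apoa1 at 14016 were below every control. In that liver Slc10a1 at 245, Slco1a1 at 49.0, Slco1b2 at 190.0, Slco2b1 at 72.0 and Abcc3 at 66.3 were also below every control. So were Abcc2 at 67.7 and Abcb4 at 129.9, whereas Abcb11 and Slco1a4 lay within the control range and Abcc4 above it. Macrophage markers were higher in 5 of 5 (summed level 66.4 to 172 in wild-type, 152 to 493 in Ndrg3 LKO livers), endothelial ones in 5 of 6 (49.4 to 63.9, 99.2 to 139.8) and stellate ones in 4 of 6 (86.7 to 141, 169 to 246). The 2 leukocyte markers tested, Ptprc and Ly6d, were higher. The sums of all 6 listed were 3.34 to 10.5 in wild-type and 40.1 to 335 in Ndrg3 LKO livers, the latter mostly Ly6d. Ptprc was at 1.97 to 3.13 in wild-type and at 3.18 to 9.16 in Ndrg3 LKO livers. Ly6d, Ptprc and Itgax were highest in Ndrg3 LKO replicate 1. Cd3e, Cd79a and S100a8 were highest in replicate 5, where Ly6d was lowest among the knockout livers. The cell source of Ly6d was not tested, so the sum is not a measure of leukocytes. Cd3e, a T cell marker, was at 0.0596 to 0.472 in all livers. Of 5 cholangiocyte markers tested Spp1 was higher and Sox9 lower (summed level of the list 38.6 to 71.9 and 51.1 to 220.0), and Cftr was at 0.0562 to 0.230 in all livers. The part of cell composition in the transporter values was not tested.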

How the data were processed

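RNA from 10 livers was sequenced after poly(A) selection with a stranded kit. Per the methods and the submitters' processing notes, reads were trimmed with Trim Galore 0.6.4, mapped to mm9 with STAR (2.7.3a in the notes) and assigned to genes; the annotation and strand setting are not given in the sources used here. The deposited values are raw counts per gene symbol, whole numbers with unequal totals, although the files call them CPM. Without a known strand setting, overlapping genes cannot be told apart.

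A gene was tested if 5 or more livers had 1 CPM or more (4 or more of the 9 livers left without Ndrg3 LKO replicate 5), with TMM and edgeR 4.0.16's quasi-likelihood test in R 4.3.3, Benjamini-Hochberg adjustment and a threshold of 0.05. A standard error is the log2 fold change over the square root of F. Exact permutation tests used log2 (TMM-normalized CPM + 1). The methods give 5 mice per group, and all 5 Ndrg3 LKO livers are used here. The paper reports its RNA sequencing and metabolome results for 5 wild-type and 4 Ndrg3 LKO mice. It does not say which liver was left out. No 2 libraries of a group agreed within sampling noise. Floors cover counting error only. limma 3.58.1, DESeq2 1.42.0, other scalings and filters, the replicate number as a block and each liver left out in turn were the alternatives. The tests across all genes were checked on simulated counts, on which DESeq2 made more false calls than edgeR or limma. In those counts 200 of 11208 genes differed, evenly up and down, and no liver was set apart. They therefore do not check the tests under a broad shift or with a liver like Ndrg3 LKO replicate 5. Positions and exon lengths came from GENCODE on mm9, in which 20945 of 24052 symbols were found.

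The genes and lists were chosen with earlier results of these data known. Named are the 10 transporters, the called genes of the other lists without overlap between groups (at most 5 each way for transport, 3 for regulators), the FXR, HNF4A, CAR and NRF2 genes, 3 synthesis genes, and for the transporters with the largest rise and fall the 3 nearest genes. Adgre1, on the macrophage list, was not among the symbols. Some genes that this rule picks are not reported here. Protein and metabolite measurements were not analysed here.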

Additional observations from a re-analysis of the deposited data

Results flagged for a closer look

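Among 54 groups of 5 livers checked with Dixon's test (24 named genes and 3 ratios in each group; chance flags about 1 in 20), 8 held a liver far from the other 4, and in every case it was Ndrg3 LKO replicate 5. Abcc4 was the 1 transporter of the 10, at 5.62 TMM-normalized CPM, with the gap to the next liver taking 0.807 of the range, above the critical value of 0.71. Among the other genes the gap was 0.865 of the range for Slc22a7 (1.37), 0.939 for Slc10a2 (4.82), 0.853 for Slc47a1 (70.2), 0.744 for Hnf4a (362), 0.739 for Nfe2l2 (69.4), 0.971 for Cyp8b1 (102) and 0.804 for Nr0b2 (14.3). In these 7 the liver lay on the wild-type side of the other knockout livers, and for Abcc4 on the far side.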

How the results depend on the processing

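The number of transporters called was 6 to 9 of 10 over the 18 alternatives, against 7, and without Ndrg3 LKO replicate 5 it was 7 to 9 over 8 alternatives, against 9. The number called higher was 3 with library-size scaling, 0 with a mean CPM of at least 5, which drops Abcc4, and 1 to 2 with each liver left out. Slc10a1, Slco1a1, Slco1b2, Slco2b1 and Abcc3 kept direction and call in all 18. Abcb11 turned to 0.18 with library-size scaling, which moved the median of all genes to 0.56; relative to that median it was -0.38, as with TMM. Leaving out each liver gave log2 ratio differences of 3.12 to 4.19 for Slco1a4 over Slco1a1, 2.46 to 3.11 for Abcc4 over Abcc2, and -1.68 to -1.41 for uptake over export. Both groups carry replicate numbers 1 to 5, but same-numbered livers did not deviate together (correlations -0.357 to 0.036, none best with its own number). With 5 livers per group and Ndrg3 LKO replicate 5 apart, these correlations cannot exclude pairs by litter or processing. With the replicate block 7 transporters and 4412 genes were called, against 7 and 5443, and 1 of 24 named genes, Cyp7a1, changed its call. On the log2 (CPM + 1) scale of limma Abcc1, at 1.29 with edgeR, was at 0.59 and, quantile-normalized, 0.41, and stayed called. Depth limits Abcc4 and Abcc1, at 5 to 28 counts in wild-type livers.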
